A study of Mus musculus with 36 samples.

Results

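The genes described here are 10 listed genes of apical-basal cell polarity in the early mouse embryo: Pard3, Pard6b, Prkci, Prkcz, Ezr, Cdc42, Mark2, Scrib, Llgl1 and Rhoa. They were taken by symbol from a table of estimated counts for 23845 genes, and all 10 were rows of it. The rule names the genes and sets no threshold on a value. All 10 passed the filter on low counts in every fit.

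A polarised epithelial cell keeps a set of proteins at its free surface and another set where it touches its neighbours. On the apical side the scaffolds PAR3 and PAR6 and the GTPase CDC42 hold atypical protein kinase C, and on the basolateral side the kinase PAR-1, SCRIB and LGL occupy the membrane, each side phosphorylating or displacing proteins of the other. Blastomeres of the mouse embryo are not polarised in the first cleavage stages and acquire an apical cap rich in ezrin and actomyosin at the 8-cell stage, when the embryo compacts, and this asymmetry is the basis on which outer and inner cells later differ.

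RNA-seq was made from 36 libraries of mouse embryos, each a pool of 4 to 5 embryos. At the 2-cell stage (2C) 4 libraries were labelled NI, 7 Ctrl and 6 KRAB, and at the 8-cell stage (8C) 6 were labelled NI, 6 Ctrl and 7 VP64. The terms KRAB and VP64 denote a repressor and an activator domain of transcription, and the title of the series concerns LINE-1 retrotransposons and open chromatin. The labels do not spell out NI, do not say what the Ctrl embryos received or what KRAB and VP64 were fused to, and give no strain, age or sex. Per their protocol field embryos were injected. A library is a replicate, nothing says that pools came from separate matings or days, and p-values therefore reflect only how much pools vary, part of which may be technical.

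Total counts ranged from 1043740 to 13583527 per library. Against marker lists of 6 genes each, genes of the 2-cell embryo summed to between 285 and 2461 CPM (counts scaled to a common library size) at 2C and between 1.99 and 36.6 at 8C, and maternal oocyte transcripts to between 2590 and 21278 at 2C and between 45.0 and 434 at 8C, so both lists separated the stages. A list of later cleavage did not by its sum, which was 117 to 3607 CPM at 2C and 623 to 3829 at 8C, with a higher median in NI at 2C (1360) than in NI at 8C (1082). Gene by gene, 5 of its 6 were called higher at 8C in NI and 4 of 6 in Ctrl (edgeR, adjusted p under 0.05). Of all genes 18.5% and 22.5% were. None of the 6 was called lower, and their median log2 fold changes were 3.13 and 2.75. Of 14 markers of the cumulus and granulosa cells around the oocyte, 4 to 11 had counts in a group, their sum was 7.58 to 404 CPM in a library, and Lum was at 0 in every group. Of 8 sperm genes 2 to 6 had counts, and their sum was 0 to 20.9 CPM. Some libraries stand apart from their group. Replicates 4 and 6 of Ctrl at 2C had the smallest totals of that group, 1543640 and 1043740 against 4440172 to 10035066. Replicate 1 of NI at 2C had the lowest sum of 2-cell genes at that stage, 285 CPM against 720 to 1252 in the other NI libraries. At 8C replicate 6 of Ctrl, replicate 7 of VP64 and replicate 5 of NI had the fewest genes detected of their own groups. These were 9672, 11343 and 11505, while replicate 3 of Ctrl had 10566.

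Between the 2-cell and the 8-cell stage the polarity genes did not move as a block. In NI embryos Pard3 and Prkci fell and Rhoa rose, and in Ctrl embryos Pard3, Prkci, Pard6b, Mark2 and Llgl1 fell while Prkcz and Rhoa rose. Counted at an adjusted p under 0.05 (edgeR's quasi-likelihood test, Benjamini-Hochberg adjustment over all genes tested), 3 of 10 changed in NI against 49.9% of all 13158 genes tested, and 7 of 10 in Ctrl against 61.5%. A call is thus common in these comparisons, and the counts of polarity genes say little by themselves. At an unadjusted p under 0.05 it was 4 of 10 in NI (Mark2 in addition) against 56% and the same 7 in Ctrl against 65.2%. In NI 1 gene was higher at 8C (18.5% of all genes) and 2 were lower (31.4%), and in Ctrl 2 were higher (22.5%) and 5 lower (39%). The median log2 fold change (8C over 2C) of the 10 was -0.58 in NI beside -0.47 over all genes, and -1.44 in Ctrl beside -0.51. In these bulk pools fewer cells with a transcript and less of it per cell cannot be told apart. The median of all genes in NI moved from -0.47 to -0.72 with the size factors of DESeq2. It was 0.09 when only the compared groups were fitted, which also changes the genes that pass the filter and the estimate of spread (in Ctrl the medians were -0.51, -0.70 and -0.44). In that last fit in NI the called genes of the whole table split into 2494 higher among 5091, in place of 2433 higher among 6562. Under these 3 fits in turn, the log2 fold change in NI was -3.79, -4.08 and -3.64 for Pard3, -2.35, -2.54 and -2.19 for Prkci, and 1.67, 1.5 and 1.83 for Rhoa. Relative to the median of the same fit these values were -3.32, -3.36 and -3.73 for Pard3, -1.88, -1.82 and -2.28 for Prkci, and 2.14, 2.22 and 1.74 for Rhoa.

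**Figure D1:**
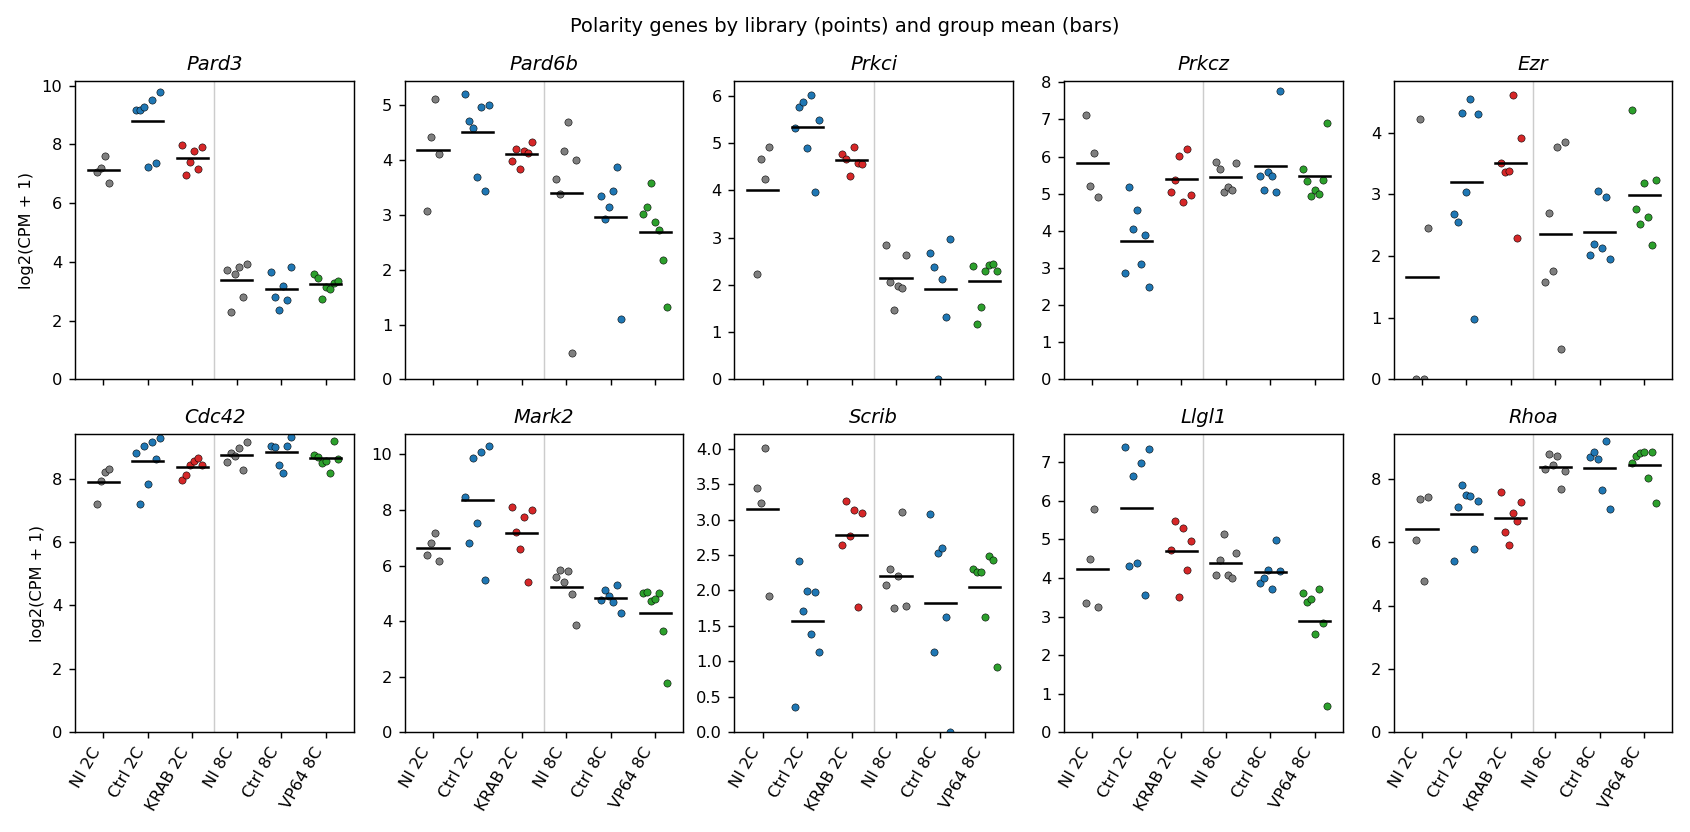
Level of each polarity gene in every library as log2(CPM + 1), with 1 panel a gene and 1 column of points a group, and a horizontal bar at the mean of these log values. Every 8C library lies below every 2C library for Pard3, and Rhoa lies higher at 8C in most libraries, while Cdc42 keeps a high level in all 6 groups.

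Pard3 and Pard6b encode the PDZ-domain scaffolds of the apical complex. Pard3 lies on the plus strand of chromosome 8 (GRCm38, chr8:127063893-127612286, ENSMUSG00000025812.17). Its level at 2C was 132, 145, 196 and 102 CPM in the 4 NI libraries, 149 to 880 CPM (median 581) in Ctrl and 123 to 251 CPM (median 192) in KRAB. In the 8C libraries it was 3.94 to 14.4 CPM (median 11.7) in NI, 4.13 to 13.1 CPM (median 7.07) in Ctrl and 5.70 to 11.1 CPM (median 8.81) in VP64. The lowest 2C library thus held many times more Pard3 than the highest 8C library, and no library crossed between the stages. The fall was 13.8-fold in NI (log2 fold change -3.79 ± 0.46 SE, adjusted p = 3.54e-08 by edgeR) and 66.0-fold in Ctrl (-6.04 ± 0.49, adjusted p = 1e-11).

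Pard6b (chr2:168081004-168101203, plus strand), which links CDC42 to the kinase, was low and varied more. Its 2C levels were 7.38, 20.4, 33.8 and 16.3 CPM in NI, 9.81 to 35.9 CPM (median 25.2) in Ctrl and 13.2 to 19 CPM (median 16.7) in KRAB. At 8C they were 0.402 to 25 CPM (median 13.3) in NI, 1.14 to 13.8 CPM (median 8.47) in Ctrl and 1.5 to 10.9 CPM (median 6.30) in VP64. The stages overlapped in NI and in Ctrl. Only the change in Ctrl passed the test (-1.56 ± 0.52, adjusted p = 0.00957, and -1.34, adjusted p = 0.0238, without replicate 6 of Ctrl at 8C at 1.14 CPM), while NI gave -0.55 ± 0.58 (adjusted p = 0.440).

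Prkci and Prkcz encode the atypical protein kinases C iota and zeta, the paralogous enzymes that the apical scaffolds hold and that phosphorylate LGL and PAR-1. Prkci (chr3:30995747-31052959, plus strand) was at 3.69, 24.2, 18 and 29.2 CPM in the NI libraries at 2C, at 14.7 to 63.6 CPM (median 44.1) in Ctrl and at 18.9 to 29.2 CPM (median 23.6) in KRAB. By 8C Prkci was at 1.79 to 6.15 CPM (median 3.04) in NI, 0 to 6.86 CPM (median 3.77) in Ctrl and 1.26 to 4.4 CPM (median 3.9) in VP64. All 19 libraries at 8C were low, from 0 to 43 counts, and only replicate 1 of NI at 2C, with 6 counts, reached down to them. Prkci fell 5.10-fold in NI (-2.35 ± 0.60, adjusted p = 0.00132) and 12.7-fold in Ctrl (-3.66 ± 0.58, adjusted p = 1.64e-06).

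Prkcz (chr4:155260129-155361361, minus strand) followed another course. It was at 137, 35.7, 66.9 and 29.0 CPM in NI at 2C, at 4.58 to 35.2 CPM (median 13.7) in Ctrl and at 26.6 to 73.4 CPM (median 36.1) in KRAB. At 8C it was at 31.9 to 57.3 CPM (median 42.4) in NI, 32.2 to 217 CPM (median 43.7) in Ctrl and 29.9 to 119 CPM (median 39.4) in VP64. The Ctrl embryos at 2C were the low group, and the medians of the 3 groups at 8C lay close together. Prkcz rose 4.59-fold in Ctrl (2.20 ± 0.50, adjusted p = 0.000237), and the rise was 1.41 (adjusted p = 0.00704) without replicate 6 of Ctrl at 8C, the library at 217 CPM. In NI the difference was -0.62 ± 0.55 (adjusted p = 0.361). Of the 31-base words of Prkcz transcripts 18.3% also occur in Prkcz2, a gene that is no row of the table, so its counts may include reads of that copy.

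Read as a share of both kinases within a library, which no scaling between libraries affects, Prkci held a lower mean part at 8C. The difference passed the test in Ctrl and not in NI. Shares of other gene pairs were not computed, so how common such differences are was not tested. The share of Prkci in the counts of Prkci and Prkcz together, not corrected for gene length, was 2.62%, 40.4%, 21.2% and 50.1% in NI replicates 1 to 4 at 2C (exact Clopper-Pearson 95% intervals 0.967 to 5.62%, 34.3 to 46.8%, 14.2 to 29.7% and 44.8 to 55.5%). Without molecular identifiers such intervals reflect counting error alone. The group mean was 28.6% ± 21.1 (SD, n = 4) in NI, 73.3% ± 16.8 (SD, n = 7) in Ctrl and 37.4% ± 11.8 (SD, n = 6) in KRAB at 2C. At 8C it was 7.52% ± 1.63 (SD, n = 6) in NI, 6.14% ± 4.46 (SD, n = 6) in Ctrl and 7.57% ± 3.64 (SD, n = 7) in VP64. The 3 groups at 8C overlapped, the highest library at 12.4% and the lowest at 0 of 307 counts. A floor of 3 counts of that total allows a share of up to 0.977%, and the exact interval reaches 1.19%.

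Between the stages the share fell by 67.1 percentage points in Ctrl, with no overlap of libraries (exact permutation test over libraries, two-sided, p = 0.000583, adjusted p = 0.00466 over 8 comparisons). It was -74.9 points without replicates 4 and 6 of Ctrl at 2C (exact test, adjusted p = 0.00866). This exclusion was chosen after the values were seen. It took out the lowest shares of that group, 55.8% and 51.7%, so it could only widen the difference. In NI the difference was -21.1 points, with overlap through replicate 1 (exact p = 0.0333, adjusted p = 0.0667), and it did not pass. That replicate also had the lowest sum of 2-cell genes at 2C (285 CPM), and the part of this was not tested. Leaving out 1 NI library at 2C gave -29.7 points without replicate 1 (exact test, adjusted p = 0.0317) and -17.1, -23.5 and -13.9 points without replicates 2, 3 and 4 (adjusted p = 0.167 each). At 2C the share in Ctrl exceeded that in NI by 44.7 points (exact p = 0.00606, adjusted p = 0.0162) and KRAB minus Ctrl was -35.8 points (exact p = 0.00291, adjusted p = 0.0117), and these comparisons share the Ctrl libraries. Without replicates 4 and 6 of Ctrl, which again could only widen them, they were 52.5 points (exact test, adjusted p = 0.0212) and -43.6 points (adjusted p = 0.00866). The lowest Ctrl library, at 51.7% (95% interval 32.5 to 70.6%, from 29 counts), lay just above the highest NI library at 50.1%, so their separation rests on a difference smaller than the counting error. KRAB and NI differed by 8.83 points (exact test, adjusted p = 0.605), and no comparison within 8C passed, with adjusted p between 0.605 and 0.962 by the same exact test.

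**Figure D2:**
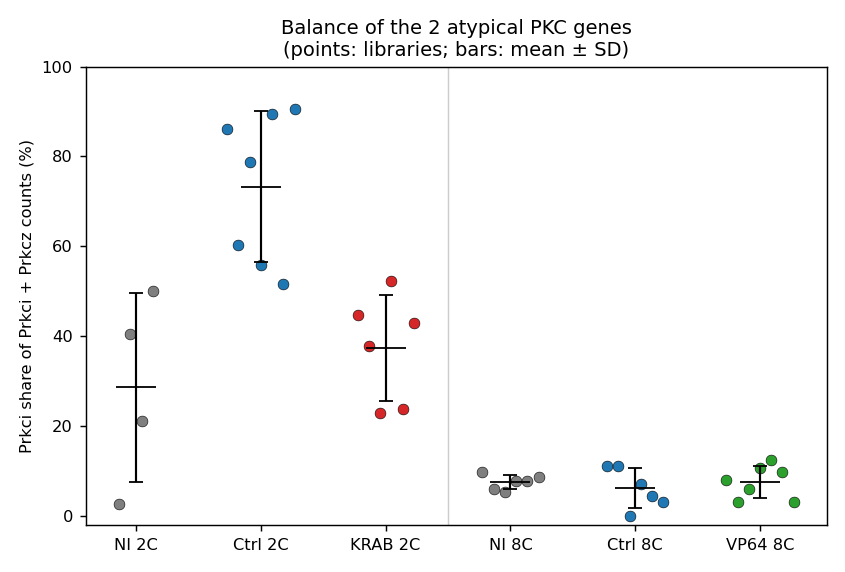
Share of Prkci in the summed counts of Prkci and Prkcz (percent) in each library by group, with the mean and SD. The 7 Ctrl libraries at 2C lie between 51.7% and 90.6%, and every library at 8C lies at 12.4% or lower.

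The promoter letters of both kinases and of Rhoa are shown because Prkci fell, Rhoa rose and Prkcz rose in Ctrl only by the test. Each line holds 200 bases, from 250 to 51 bases before the RefSeq start farthest upstream (GRCm38.p6), written 5′ to 3′ on the gene's strand, and capitals mark a match to the AP-2 motif GCCNNNGGC on either strand. Prkci lies at chr3:30995521-30995720 on the plus strand, Prkcz at chr4:155361479-155361678 on the minus strand and Rhoa at chr9:108305910-108306109 on the plus strand.
Prkci: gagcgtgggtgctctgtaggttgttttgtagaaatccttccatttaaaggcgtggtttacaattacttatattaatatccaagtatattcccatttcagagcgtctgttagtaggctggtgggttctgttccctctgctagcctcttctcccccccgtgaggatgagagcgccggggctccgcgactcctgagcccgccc
Prkcz: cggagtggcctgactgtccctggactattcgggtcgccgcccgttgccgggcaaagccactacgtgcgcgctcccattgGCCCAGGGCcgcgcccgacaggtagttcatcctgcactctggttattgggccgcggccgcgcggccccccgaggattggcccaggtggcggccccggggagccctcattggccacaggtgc
Rhoa: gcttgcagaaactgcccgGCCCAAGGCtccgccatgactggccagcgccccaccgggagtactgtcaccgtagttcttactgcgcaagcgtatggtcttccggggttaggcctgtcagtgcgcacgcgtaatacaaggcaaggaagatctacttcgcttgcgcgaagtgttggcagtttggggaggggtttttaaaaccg
The AP-2 motif and the TEAD core GGAATG were searched on both strands because factors of the AP-2 and TEAD families act upstream of polarisation in the embryo. AP-2 letters occurred 1 time in Prkcz and in Rhoa and 0 times in Prkci, and TEAD letters 0 times in all 3. Of all 27025 RefSeq promoter windows of this length 10.3% held the AP-2 letters and 10.7% the TEAD letters. Of the 9 polarity genes with an entry, 4 held AP-2 letters (Pard3, Pard6b, Prkcz and Rhoa). Every fixed letter of that motif is G or C. The windows of these 4 held 79.5, 77, 71 and 58% G and C, the others 39 to 66%, beside a median of 51.5% over all windows. The window of Prkci held 9 CpG, that of Rhoa 15 and that of Prkcz 20, beside a median of 4 over all windows. A match is a description of letters and was not tied to any measurement here.

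Cdc42 and Rhoa encode small GTPases, the first a binding partner of PAR6 and the second the activator of the actomyosin cortex. Cdc42 (chr4:137319696-137357720, minus strand) was at 147, 241, 295 and 312 CPM in NI at 2C, at 146 to 626 CPM (median 444) in Ctrl and at 247 to 401 CPM (median 346) in KRAB. At 8C its medians were 432 CPM in NI (310 to 569), 513 CPM in Ctrl (291 to 633) and 396 CPM in VP64 (290 to 586). The groups overlapped throughout, and neither stage comparison passed the test (0.80 ± 0.40, adjusted p = 0.0919 in NI and 0.17 ± 0.34, adjusted p = 0.685 in Ctrl, by edgeR).

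Rhoa (chr9:108306129-108337934, plus strand) was at 67.1, 164, 26.6 and 172 CPM in NI at 2C, at 41.6 to 223 CPM (median 156) in Ctrl and at 59.2 to 191 CPM (median 111) in KRAB. Its 8C levels were 204 to 449 CPM (median 334) in NI, 133 to 593 CPM (median 407) in Ctrl and 151 to 469 CPM (median 428) in VP64. In NI every library at 8C lay above every library at 2C, which held for 12.8% of all genes, and in Ctrl the ranges met through replicate 6 at 133 and replicate 4 at 200 CPM. The rise was 3.17-fold in NI (1.67 ± 0.53, adjusted p = 0.00846) and 2.65-fold in Ctrl (1.41 ± 0.43, adjusted p = 0.00484). Rhoa was the only one of the 10 called higher in both. Of its 31-base words 10.8% occur in other genes, and Tcta and the antisense transcript Gm37401 overlap it on the opposite strand, so with the strand of counting not stated some reads cannot be assigned to it with certainty.

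Ezr (chr17:6738041-6782784, minus strand) encodes ezrin, which ties actin to the apical membrane and whose protein marks the apical cap. Its RNA was low at both stages. At 2C it was at 0, 17.8, 0 and 4.46 CPM in NI, at 0.981 to 22.5 CPM (median 7.26) in Ctrl and at 3.93 to 23.4 CPM (median 9.94) in KRAB. At 8C it was at 0.402 to 13.4 CPM (median 3.95) in NI, 2.86 to 7.35 CPM (median 3.47) in Ctrl and 3.52 to 19.6 CPM (median 5.81) in VP64. The libraries within a group differed as much as the groups did, and the stage differences were 0.06 ± 0.81 (adjusted p = 0.957) in NI and -1.32 ± 0.71 (adjusted p = 0.104) in Ctrl. Without replicates 4 and 6 of Ctrl at 2C the latter was -1.73 and passed (adjusted p = 0.0369 by edgeR). This exclusion was chosen after the values were seen. The 95% interval in NI ran from -1.58 to 1.70, so changes of either sign within it remained compatible with these values. Sytl3 overlaps Ezr on the opposite strand.

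Mark2, Scrib and Llgl1 encode the basolateral proteins: Mark2 a PAR-1 kinase, Scrib a large PDZ scaffold and Llgl1 the LGL protein that atypical protein kinase C displaces from the apical side. Mark2 (chr19:7275396-7341860, minus strand) was at 82.5, 113, 144 and 71.1 CPM in NI at 2C, at 43.2 to 1273 CPM (median 350) in Ctrl and at 42.0 to 279 CPM (median 180) in KRAB. At 8C it was at 13.4 to 55.9 CPM (median 44.2) in NI, 18.9 to 38.1 CPM (median 27.5) in Ctrl and 2.40 to 31.9 CPM (median 27) in VP64. No 8C library of NI or Ctrl reached the 2C libraries of the same label. The fall passed the test in Ctrl, where it was 20.1-fold (-4.33 ± 0.64, adjusted p = 4.32e-07), and not in NI (-1.34 ± 0.62, adjusted p = 0.0707).

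Scrib (chr15:76047158-76069784, minus strand) was at 9.85, 8.40, 15.1 and 2.81 CPM in NI at 2C, at 0.285 to 4.32 CPM (median 2.26) in Ctrl and at 2.42 to 8.58 CPM (median 6.69) in KRAB. At 8C its medians were 3.42 CPM in NI (2.38 to 7.64), 3.41 in Ctrl (0 to 7.44) and 3.80 in VP64 (0.899 to 4.59). Scrib was highest in NI and lowest in Ctrl at 2C, and its stage difference was -1.21 ± 0.66 (adjusted p = 0.124) in NI and 0.66 ± 0.58 (adjusted p = 0.330) in Ctrl.

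Llgl1 (chr11:60699723-60714186, plus strand) was at 9.23, 21.6, 54.6 and 8.58 CPM in NI at 2C, at 10.8 to 168 CPM (median 98.9) in Ctrl and at 10.4 to 43.6 CPM (median 27.6) in KRAB. The 8C libraries held 14.9 to 34.3 CPM (median 18.6) in NI, 12.2 to 30.9 CPM (median 16.1) in Ctrl and 0.599 to 12.1 CPM (median 9.35) in VP64. In NI the stages overlapped (-0.14 ± 0.63, adjusted p = 0.865), and in Ctrl Llgl1 fell 4.87-fold (-2.28 ± 0.57, adjusted p = 0.000772) although its lowest 2C library lay below every 8C library. Flii overlaps Llgl1 on the opposite strand.

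Counted by non-overlap, 2 genes lay lower at 8C in every NI library (Pard3 and Mark2), where 20.7% of all genes did, and 3 in every Ctrl library (Pard3, Prkci and Mark2), where 17.3% did. In Ctrl 0 of 10 lay higher in every library, where 7.11% of all genes did. Pard3, Prkci and Rhoa, 3 of 10, were called in both labels in the same direction, as were 5328 of all 13158 genes tested. Such a pair of calls was thus common over all genes. The stage comparisons use separate libraries, and their difference was tested as an interaction.

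**Figure D3:**
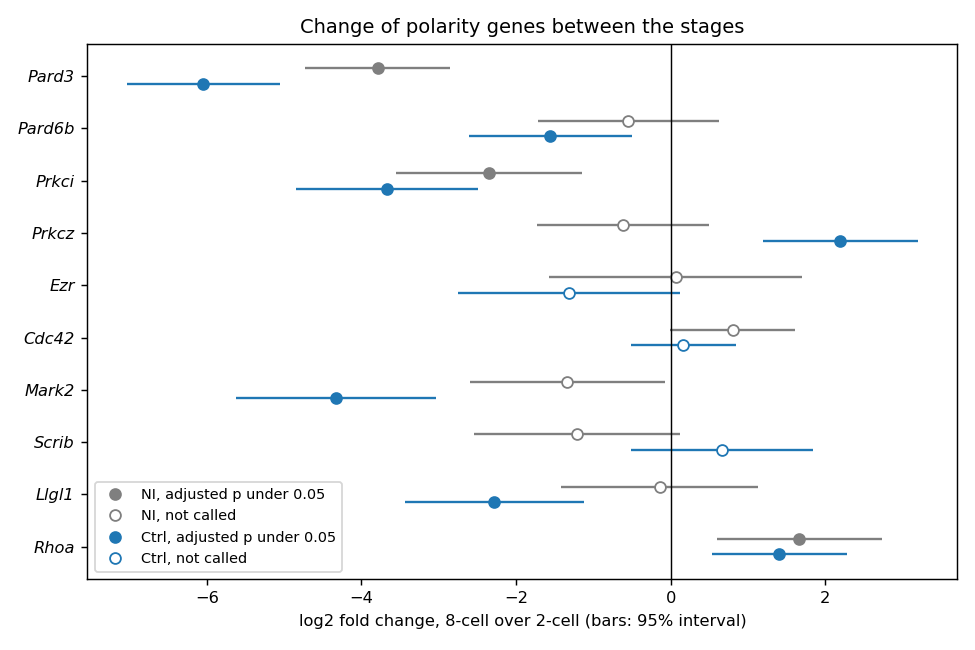
Log2 fold change of each polarity gene from 2C to 8C in NI (grey) and Ctrl (blue), with 95% intervals, and filled points at adjusted p under 0.05. Pard3, Prkci and Rhoa are filled for both labels, and Prkcz points to opposite sides of 0.

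The stage change differed between Ctrl and NI by 2.81 ± 0.74 for Prkcz (95% interval 1.33 to 4.30, adjusted p = 0.0794 by edgeR), by -2.99 ± 0.88 for Mark2 (-4.76 to -1.22, adjusted p = 0.0919) and by -2.25 ± 0.61 for Pard3 (-3.49 to -1.02, adjusted p = 0.0849). By this test 0 of 10 polarity genes and 0% of all genes passed. At an unadjusted p under 0.05 it was 5 of 10 (with Llgl1 at -2.14 ± 0.86 and Scrib at 1.87 ± 0.88) against 20.4% of all genes. DESeq2 called 3 of 10 (Pard3, Prkcz and Mark2), among 693 genes in all. With quality weights limma voom called 4, among 3600 of 13158 genes. The count was 1 without replicate 2 of Ctrl at 2C, 3 without replicate 4, 3 without replicate 6 and 4 without both of the latter. The exclusion of both was chosen after the values were seen. Without replicate 6 of Ctrl at 8C the difference of Prkcz was 2.02 (adjusted p = 0.150 by edgeR). Whether a difference passes therefore depends on which Ctrl libraries at 2C are kept and on the tool.

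At 2C Ctrl had higher mean Pard3, Mark2 and Llgl1 and lower mean Prkcz and Scrib than both NI and KRAB, but 0 of 10 and 0% of 11799 genes passed the test in any of the 3 comparisons. KRAB and NI are each set against the same 7 Ctrl libraries, so these comparisons are not independent. Against NI, Ctrl gave 1.58 ± 0.50 for Pard3, 2.11 ± 0.75 for Mark2, 1.55 ± 0.73 for Llgl1 and 1.02 ± 0.46 for Prkci, and -2.39 ± 0.60 for Prkcz and -2.23 ± 0.62 for Scrib (adjusted p from 0.121 to 0.206, by edgeR). KRAB against Ctrl gave -1.24 ± 0.43 for Pard3, -1.44 ± 0.63 for Mark2, -1.43 ± 0.62 for Llgl1, 1.69 ± 0.55 for Prkcz and 1.59 ± 0.57 for Scrib (adjusted p from 0.230 to 0.285). These are the genes with an unadjusted p under 0.05: 6 of 10 for Ctrl against NI, beside 23.4% of all genes, and 5 of 10 for KRAB against Ctrl, beside 15.6%. KRAB against NI had 0 of 10 at that level, beside 3.12%, with differences from -0.71 ± 0.62 for Prkcz to 1.06 ± 0.89 for Ezr. The libraries of 2 groups did not lie apart for any polarity gene at 2C. Over all genes they did, higher and lower in the first-named group, for 0.119% and 0.136% in KRAB against Ctrl, 0.517% and 0.297% in Ctrl against NI and 0.347% and 0.263% in KRAB against NI.

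Other tools counted these genes differently. For Ctrl against NI, DESeq2 called 4 of 10 (Pard3, Prkcz, Mark2 and Scrib) among 1071 genes, and limma voom 7 among 5993 of 11799. The number of genes tested by DESeq2 is not given here. For KRAB against Ctrl, DESeq2 called 0 of 10 among 221 genes, and limma voom 6 among 5252 of 11799. For KRAB against NI both called 0 genes. Without replicate 6 of Ctrl, edgeR called the same 4 genes as DESeq2 for Ctrl against NI, among 1374. Without replicates 4 and 6 of Ctrl it called 6 of 10 for Ctrl against NI, among 2829 genes, and 3 of 10 (Pard3, Mark2 and Llgl1) for KRAB against Ctrl, among 1987. This exclusion was chosen after the values were seen.

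**Figure D4:**
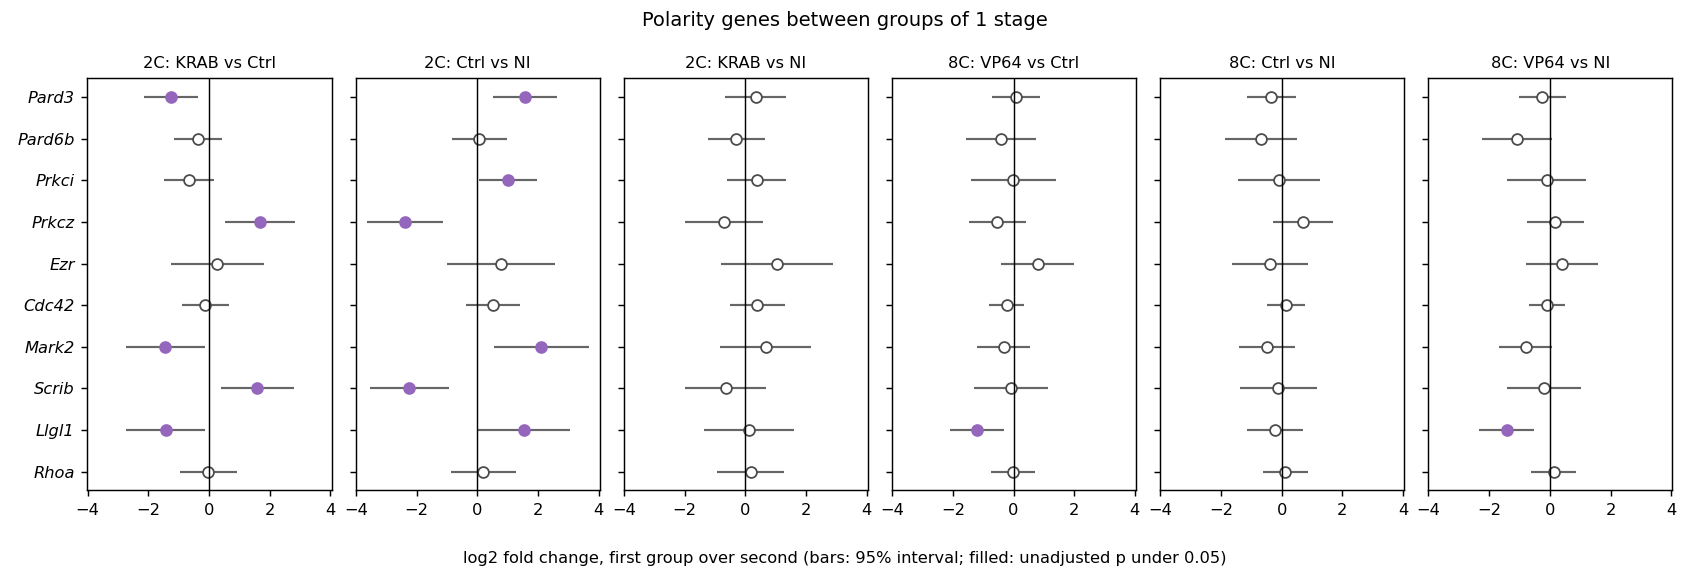
Log2 fold changes of the polarity genes between groups of 1 stage, with 95% intervals, and filled points at an unadjusted p under 0.05. Pard3, Prkcz, Mark2, Scrib and Llgl1 are filled in both comparisons with Ctrl at 2C, and Llgl1 alone in those with VP64 at 8C.

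The 7 Ctrl libraries at 2C were far from alike. Pard3 was at 576, 581, 612, 149, 733, 166 and 880 CPM in replicates 1 to 7. Mark2 was at 350, 112, 935, 186, 1092, 43.2 and 1273 CPM. Llgl1 was at 168, 18.9, 98.9, 20.1, 126, 10.8 and 163 CPM. Replicates 4 and 6, which have the smallest totals, were the low ones for Pard3, at the level of NI and KRAB, and replicate 2, with 7176488 counts, joined them for Mark2 and Llgl1 but not for Pard3. Replicates 1, 3, 5 and 7 were high for all 3, and of these Prkcz was at 6.28, 15.5, 7.58 and 4.58 CPM, against 35.2, 22.6 and 13.7 in replicates 2, 4 and 6. Total counts were 1376619 to 4962006 in NI and 1296375 to 4336022 in KRAB, and the part of library size in these differences was not tested. The 6 markers of later cleavage summed to 117 to 393 CPM in 6 Ctrl libraries and to 3315 CPM in replicate 6, beside 287 to 2457 in NI and 449 to 3607 in KRAB, and the 14 cumulus and granulosa genes to 7.58 to 173 CPM in Ctrl, 37.4 to 130 in NI and 40.7 to 397 in KRAB, with Amh and Lum at 0 in all 3 groups. Their part in the result was not tested.

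**Figure D5:**
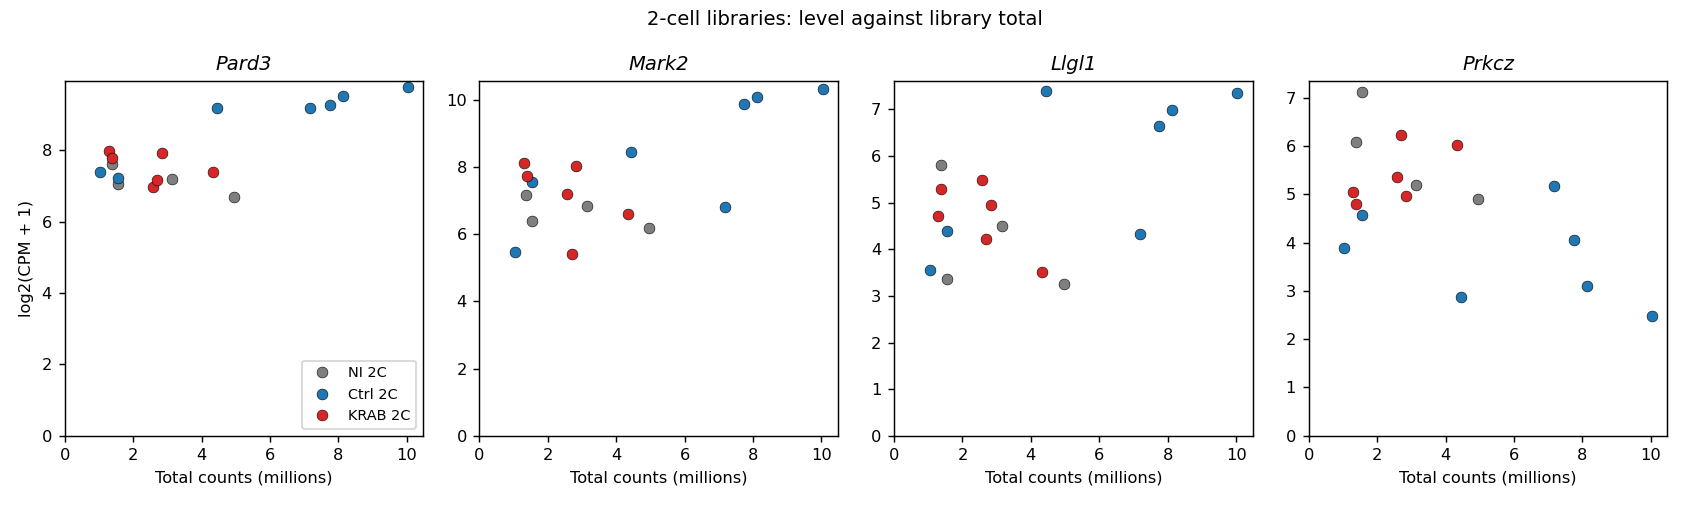
Level of 4 polarity genes, as log2(CPM + 1), against the total counts of each 2C library, with points coloured by group. The Ctrl libraries span 1043740 to 10035066 counts, and Pard3, Mark2 and Llgl1 are low in both of the smallest, while Mark2 and Llgl1 are also low in the library of 7176488 counts.

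At 8C the largest fitted difference of a polarity gene between groups was that of Llgl1, lower in VP64. By edgeR 0 of 10 and 0% of 9850 genes passed in VP64 against Ctrl, VP64 against NI and Ctrl against NI. At an unadjusted p under 0.05 Llgl1 was the 1 gene of 10 in each comparison with VP64 (beside 3.99% of all genes against Ctrl and 7.17% against NI), and 0 of 10 were below it for Ctrl against NI (beside 4.36%). DESeq2 called 1, 21 and 1 genes in all, limma voom 0, 14 and 0, and neither called a polarity gene. Llgl1 in VP64 was at 11.2, 9.35, 9.98, 4.80, 12.1, 6.17 and 0.599 CPM in replicates 1 to 7, from 2 to 91 counts. All 7 lay below the 6 NI libraries (14.9 to 34.3) and the 6 Ctrl libraries (12.2 to 30.9), although the gap to Ctrl was only that from 12.1 to 12.2 CPM. Libraries lay apart in this way, lower in VP64, for 0.0812% of all genes against Ctrl and 0.264% against NI, and higher for 0.102% and 0.193%. Between Ctrl and NI 0 of 10 did, beside 0.0203% of all genes higher and 0.0609% lower in Ctrl. The difference was -1.42 ± 0.43 against NI (2.68-fold, adjusted p = 0.598) and -1.21 ± 0.43 against Ctrl (2.31-fold, adjusted p = 0.999), and over the alternatives against NI it ranged from -1.56 to -1.21 with adjusted p from 0.0939 to 0.9999. Without replicate 6 of Ctrl and replicate 7 of VP64 it was -1.21 and -0.99. The comparisons share the VP64 libraries.

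The other 9 differed less at 8C. Pard6b was -1.09 ± 0.56 and Mark2 -0.80 ± 0.42 in VP64 against NI (adjusted p = 0.726 and 0.741 by edgeR), and -0.91 and -0.59 without replicate 7 of VP64. Ezr was 0.79 ± 0.59 in VP64 against Ctrl, and 0.38 without replicate 1 of VP64. Prkcz was 0.72 ± 0.48 in Ctrl against NI and -0.53 ± 0.46 in VP64 against Ctrl. Without replicate 6 of Ctrl these Prkcz values were -0.10 and 0.28. Pard3 lay within 0.34 of 0 in all 3 comparisons, with 95% intervals from -1.15 to 0.88. Prkcz was highest in replicate 6 of Ctrl (217 CPM) and replicate 7 of VP64 (119 CPM), and at 47.0 CPM in replicate 3 of Ctrl, which also had few genes detected. In replicate 6 of Ctrl and replicate 7 of VP64 the later-cleavage markers summed to 3829 and 3232 CPM and the oocyte transcripts to 434 and 155 CPM. The cumulus and granulosa list was at 16 and 15.6 CPM there, the lowest sums at 8C. Replicate 6 of VP64 also had a high later-cleavage sum (3146 CPM), with Prkcz at 40.5 CPM. Replicate 5 of NI had 172 CPM of oocyte transcripts, with Prkcz at 33.0 CPM. The part of these in the Prkcz values was not tested.

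Compared per kilobase of exon, the order of the 10 genes changed with stage in its middle and not at its ends. Cdc42 was first in all 6 groups, at 83.9 CPM per kb in NI at 2C and 147 in NI at 8C, and Scrib last, at 1.4 and 0.600. At 2C Mark2 was second in Ctrl (71.8 CPM per kb) and KRAB (21.7) and Rhoa in NI (14.3), with Pard3 in places 3 to 5 (9.90 to 36.4). At 8C Rhoa was second in all 3 groups (45.6 to 49.5 CPM per kb) and Prkcz in place 3 (6.92 to 11), and Pard3 stood in place 8 or 9 (0.556 to 0.702). Neighbours in the order mostly overlapped in their libraries. In NI and VP64 at 8C Cdc42 and Rhoa were each apart from the next gene, in VP64 also Prkcz from Mark2, and in Ctrl at 8C only Cdc42 from Rhoa. At 2C only Cdc42 from the next gene in NI and KRAB and Prkcz from Scrib in Ctrl were apart. These ratios rest on annotated exons, and with the longest transcript in place of all exons 6 to 10 genes kept their place in a group. In NI at 2C Pard3 was then in place 2 (24.7 CPM per kb) and Rhoa in place 4 (21.1).

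Other genes of the pathway were read in 7 lists of 98 genes, 95 in the table and 88 tested over both stages, none of them among the 10. NI embryos had 19 of these higher at 8C and 24 lower, and Ctrl embryos 16 and 31, with medians of -0.08 and -0.20 beside -0.47 and -0.51 over all genes. Over all genes 18.5% were called higher and 31.4% lower in NI, and 22.5% and 39% in Ctrl, and the counts of the 88 lie near these shares. The lists were chosen with earlier results of these data known. Among 9 tested partners of PAR and atypical protein kinase C the counts higher and lower were 4 and 1 in NI, 1 and 3 in Ctrl. Their medians were 1.66 in NI and -0.15 in Ctrl. The difference of the stage change, Ctrl minus NI, was above 0 for 0 of these 9, beside 5363 of all 13158 genes. By edgeR 0 of the 9 passed for it, as did 0 of all genes. F11r, the junctional adhesion molecule JAM-A that binds PAR3, rose in both (means of 43.5 and 59.1 CPM at 2C, 313 and 330 at 8C, 2.83 ± 0.76 and 2.48 ± 0.60). Pard6g, a paralogue of Pard6b, fell in both, from means of 8.17 and 48.7 CPM to 0.818 and 0.283, and Cdc42se1, a CDC42 effector, fell in Ctrl (-1.45 ± 0.36) and was at -0.33 ± 0.40 in NI.

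The Crumbs group, which works beside PAR6 at the apical membrane, had 6 tested genes. Higher and lower were 1 and 3 in NI, 1 and 5 in Ctrl, with medians of -2.13 and -3.59, where 31.4% and 39% of all genes were lower and the medians of all genes were -0.47 and -0.51. Mpp5, which encodes PALS1, fell in NI (-3.56 ± 0.49) and Ctrl (-3.76 ± 0.46), from means of 83.0 and 105 CPM to 7.02 and 7.74. The multi-PDZ gene Mpdz fell likewise (-4.75 ± 0.71 and -3.48 ± 0.64), and its relative Inadl fell in Ctrl (-3.70 ± 0.70) and was at -0.71 ± 0.72 in NI. Epb41l5 was not analysed here.

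Of 15 tested basolateral genes and regulators of PAR-1, NI had 1 higher and 5 lower, Ctrl 4 and 5. Llgl2, the paralogue of Llgl1, fell in Ctrl (-3.15 ± 0.65, from a mean of 110 to 12.3 CPM) and was at -1.35 ± 0.67 in NI (adjusted p = 0.0916 by edgeR). Stradb, a partner of the kinase LKB1, fell in both (-5.36 ± 0.73 and -6.18 ± 0.73), and Cab39, which encodes the LKB1 partner MO25, rose in Ctrl (1.39 ± 0.33) and was at 0.35 ± 0.38 in NI. Of 8 tested ezrin-family genes and their linkers 0 rose, and 4 fell in NI and 5 in Ctrl, where 31.4% and 39% of all genes fell and 18.5% and 22.5% rose. Rdx, which encodes radixin, fell in both (-2.68 ± 0.41 and -2.69 ± 0.38), as did the ezrin linker Slc9a3r1 (-2.84 ± 0.88 and -3.76 ± 0.84) and Ppp1r12a, a subunit of myosin phosphatase (-2.33 ± 0.45 and -3.16 ± 0.43).

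Around the GTPases, 17 genes were tested, with 2 higher and 6 lower in NI, 1 and 5 in Ctrl. Rock1, a kinase that RHOA activates, fell in NI (-3.97 ± 0.55) and Ctrl (-2.17 ± 0.48) while Rhoa itself rose, and the RAC exchange factors Tiam1 (-3.08 ± 0.54 and -3.35 ± 0.51) and Tiam2 (-3.80 ± 0.50 and -3.76 ± 0.47) fell. Diaph1 and Diaph3 were not analysed here. Of 20 actomyosin genes 7 were higher and 1 lower in NI, 6 and 4 in Ctrl, with medians of 1.07 and 0.39, where 18.5% and 22.5% of all genes were higher and 31.4% and 39% lower. Actg1, a cytoplasmic actin, rose from means of 103 and 154 CPM to 750 and 900 (2.86 ± 0.79 and 2.54 ± 0.63), Tpm1, a tropomyosin, rose in Ctrl (3.19 ± 0.70) and was at 1.90 ± 0.83 in NI (adjusted p = 0.0526 by edgeR), and Vil1, which encodes villin, fell from means of 101 and 141 CPM to 0.985 and 0.711.

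Of 13 genes of the transcription factors, signals and Hippo components linked to polarisation, NI had 4 higher and 4 lower, Ctrl 3 and 4. The shares of all genes were 18.5% higher and 31.4% lower in NI, and 22.5% and 39% in Ctrl, so these counts say little by themselves. Tead4, the DNA-binding partner of YAP, rose in both (3.77 ± 0.82 and 3.05 ± 0.63, from means of 14.4 and 17.2 CPM to 200.2 and 144), Amotl2, an angiomotin relative, rose in both (6.05 ± 1.21 and 3.94 ± 0.80, from means of 0.3 and 1.67 CPM to 26.4 and 28.5), and Yap1 fell in both (-3.36 ± 0.40 and -2.62 ± 0.36). Within a stage, by edgeR at an adjusted p under 0.05, 0 of the 79 list genes tested at 2C passed. At 8C 0 of the 73 tested passed, and 0 of all genes did at either stage. The shares of all genes at an unadjusted p under 0.05 are given above, and those of the list genes are not given here.

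The genes whose level over the 36 libraries was most like that of the polarity genes called in both labels were found by Pearson's r of log2(CPM + 1), as a description. Pard3 was matched by Antxr2, Afap1l2 and Nlrp9a (r = 0.98 each), Prkci by Eif4enif1, Chek1 and Dclre1a (0.94, 0.93 and 0.93) and Rhoa by Psap, Drg2 and Slc1a1 (0.93, 0.93 and 0.92). The libraries share stage, depth and amplification, which all enter these values. With the group means taken out, r was 0.67 to 0.73 for the genes like Pard3, 0.61 to 0.69 for those like Prkci and 0.83 to 0.85 for those like Rhoa.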

How the data were processed

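RNA was measured in 36 libraries, each of 4 to 5 pooled embryos per the series' design text, amplified using the SMART-seq v4 kit, per the labels' protocols. The deposited table holds estimated counts (expected counts that need not be whole) per gene symbol, for which the submitters' processing notes name Bowtie2, RSEM and the mm10 build (per the submitters' processing notes). A read that fits several genes is shared out by RSEM. Tool versions, gene models and strandedness: not given in the sources used here. Per-sample columns not used numbered 0. Groups came from the labels of treatment and stage. Replicate numbers follow accession order, name libraries only and pair none.

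Counts were rounded and tested with edgeR 4.0.16 (R 4.3.3): TMM, robust quasi-likelihood test, filterByExpr with a minimum count of 10 and total of 15, Benjamini-Hochberg adjustment at 0.05. Stage comparisons and the interaction were fitted on all 36 libraries (13158 genes), others on the libraries of 1 stage (11799 and 9850 genes). CPM are rounded counts over the TMM-scaled total. SE is the log2 fold change divided by the root of F. Shares of Prkci were tested by exact permutation over libraries with at least 10 counts of both genes. The code was tested on simulated data. Alternatives were DESeq2 1.42.0 and its size factors, limma 3.58.1 voom with quality weights, no filter, a fit on the compared groups, and each library left out. Gene coordinates follow GENCODE vM21 (GRCm38, the same assembly as mm10) and promoters RefSeq.

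The polarity genes and lists were chosen with earlier results of these data known. Named from each list were up to 3 genes with the smallest adjusted p in the Ctrl stage comparison among those that passed with a mean of at least 10 CPM in 1 group, and, for each polarity gene called in both labels, the 3 genes of highest Pearson's r.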

Additional observations from a re-analysis of the deposited data

Results flagged for a closer look

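In 6 of 66 sets of libraries (a gene or the Prkci share in a group), 1 library lay farther from the others than the 95% critical value of Dixon's ratio allows, where chance gives about 1 in 20, or 3.3. Values are log2(CPM + 1). Pard6b was lowest in replicate 5 of NI at 8C (0.488, next 3.39) and in replicate 6 of Ctrl at 8C (1.10, next 2.92). Prkcz was highest in replicate 6 of Ctrl at 8C (7.77, next 5.59) and in replicate 7 of VP64 at 8C (6.91, next 5.68). In that VP64 library Mark2 (1.76, next 3.64) and Llgl1 (0.677, next 2.54) were lowest. Of the 6, 5 fall in replicate 6 of Ctrl and replicate 7 of VP64 at 8C, and the other in replicate 5 of NI at 8C. Each of these libraries had the fewest genes detected of its own group (9672, 11343 and 11505 in that order).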

How the results depend on the processing

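No paired analysis was possible because the labels give no replicate numbers, animals or batches that pair libraries. All 185 values of called polarity genes under the alternatives run stayed called with the same sign. Of 1717 values in all, 56 were called in an alternative and not in the reported fit, 20 of them with limma voom, and 102 uncalled values changed sign. The count of polarity genes called between the stages in NI was 3 and became 5 with DESeq2 and 5 with limma voom, while the calls over all genes went from 6562 to 7455 and 7444. For the interaction it was 0 and became 3 with DESeq2, 4 with limma voom, 0 to 3 with a library left out, and 4 without replicates 4 and 6 of Ctrl at 2C. For KRAB against Ctrl it was 0 and became 6 with limma voom and 3 without those replicates. For Ctrl against NI at 2C it was 0 and became 4 with DESeq2, 7 with limma voom, 0 to 4 with a library left out, and 6 without those replicates. The cause was not tested, and the exclusion of those replicates was chosen after the values were seen. Over all genes limma voom called 3600 of 13158 for the interaction. It called 5252 of 11799 for KRAB against Ctrl and 5993 of 11799 for Ctrl against NI. The Prkci share between stages in NI was -21.1 points and ranged from -29.7 to -13.9 points with a library left out. With the longest transcript as length, 6 genes kept their place in KRAB at 2C and 6 in Ctrl at 8C. Over all genes, counts of 0 became 1374 (Ctrl against NI) and 159 (KRAB against Ctrl) without replicate 6 of Ctrl at 2C, and 84, 265 and 1098 for the interaction without replicates 2, 4 and 6. With 0 to 43 counts of Prkci per library at 8C, its differences within that stage had 95% intervals from -1.45 to 1.4.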
